A study of Mus musculus with 11 samples.

Results

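Inhibitory checkpoint and exhaustion genes were followed in CD8+ Tregs, the CD8+CD44+Ly49+CD122+ T cells of the mouse spleen, between young and middle-aged animals. The group held 10 genes, chosen by symbol from the 54532 genes of the count table. They were 6 inhibitory receptor genes (Pdcd1, Lag3, Tigit, Havcr2, Ctla4 and Btla), the inhibitory ligand gene Cd200, the ATP-degrading surface enzyme gene Entpd1, and the transcription factor genes Tox and Nfatc1. All 10 genes passed the filter on low counts. The libraries came from wild-type (WT) mice, sorted from the spleen by the same gate, and no treatment is given in the labels. There were 3 young males and 3 young females at 2 to 3 months, and 2 males and 3 females at 10 to 12 months, which the labels call Old and which are called middle-aged here. Each of the 11 libraries was an independent biological replicate and was numbered, from 1 up to 3, among those alike in sex and age.

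Checkpoint receptors are surface proteins that dampen a T cell after it has been activated. PD-1 (Pdcd1) and BTLA carry inhibitory tyrosine motifs in their tails that recruit phosphatases, CTLA-4 competes with CD28 for CD80 and CD86, TIGIT competes with CD226 for nectin-family ligands, and LAG-3 binds MHC class II. TIM-3 (Havcr2) and CD39 (Entpd1) are found on terminally exhausted CD8 T cells and also on myeloid and regulatory T cells. Under lasting antigen, calcineurin activates NFAT proteins such as NFATc1, and the HMG-box factor TOX then holds the exhausted state. CD8+ T cells that respond to self ligands, the compartment to which CD8+ Tregs belong, can carry some of these receptors without being exhausted.

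Depth lay between 6135736 and 24394532 reads counted in a library, with young male 1 and young female 1 under 10000000. Genes of the sorted phenotype were present in every library, with Cd8a at 642 to 1020 CPM (counts per 1000000 of the library, after scaling), Cd3e at 533 to 984 CPM and Il2rb, which encodes CD122, at 552 to 2620 CPM. A count of 0 allowed a level of up to 0.543 CPM in young male 1 and up to 0.119 CPM in the deepest library, a limit that covers counting error only. One library stood apart. Middle-aged female 2 had a summed level of 2690 CPM for 12 myeloid marker genes, against 46.5 to 354 CPM in the 10 other libraries. The age difference of each of the 10 genes is therefore shown with and without it. In these bulk samples, fewer cells of a type and less RNA per cell cannot be told apart.

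The 250 bases upstream of the annotated start of 3 receptor genes are shown, as examples of genes with variable and with even levels. The coefficient of variation of the level over the 11 libraries, middle-aged female 2 included, was 112% for Pdcd1 and 124% for Ctla4. That of Btla, 17.8%, was the lowest of the 10 genes. The highest, 182%, was that of Lag3, for which no promoter entry was matched. The sequences are from RefSeq (GRCm38.p6), 5′ to 3′ on the strand of the gene, with matches to the NFAT core GGAAA on either strand (TTTCC when read on the opposite strand) in capitals.
Pdcd1, chr1:94052554-94052803, minus strand: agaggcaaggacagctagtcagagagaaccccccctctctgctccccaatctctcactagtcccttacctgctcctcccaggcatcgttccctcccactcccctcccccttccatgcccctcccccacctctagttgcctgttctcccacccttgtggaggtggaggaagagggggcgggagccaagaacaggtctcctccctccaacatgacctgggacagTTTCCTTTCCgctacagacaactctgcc
Ctla4, chr1:60908775-60909024, plus strand: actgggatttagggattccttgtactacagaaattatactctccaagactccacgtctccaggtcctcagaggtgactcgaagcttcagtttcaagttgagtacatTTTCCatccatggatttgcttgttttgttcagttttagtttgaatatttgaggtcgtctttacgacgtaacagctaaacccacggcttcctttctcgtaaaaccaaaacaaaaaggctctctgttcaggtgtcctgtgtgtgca
Btla, chr16:45224087-45224336, plus strand: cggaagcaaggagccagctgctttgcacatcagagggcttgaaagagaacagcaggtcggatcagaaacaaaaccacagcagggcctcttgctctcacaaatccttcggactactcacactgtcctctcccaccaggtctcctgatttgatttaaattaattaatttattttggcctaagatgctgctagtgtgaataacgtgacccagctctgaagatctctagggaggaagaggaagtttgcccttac
The Pdcd1 window held 2 matches side by side close to the start, the Ctla4 window 1 match and the Btla window 0. Such a match occurred in 55.6% of the 32851 promoter windows of this length, so its presence is common. The AP-1 motif TGANTCA, which is its own reverse complement, was in 0 of these 3 windows and in 6.75% of all windows. The Ctla4 window lies inside the span of Ctla4 in the count table, which takes in transcripts that start further upstream. Promoter entries were matched for 7 of the 10 genes. Of their 8 windows, 4 held the NFAT core and 1, that of Havcr2, held the AP-1 motif.

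The first question was whether the checkpoint and exhaustion genes as a group were changed in middle-aged CD8+ Tregs. In edgeR's quasi-likelihood test with sex as a second term, the adjusted p was under 0.05 for 0 of the 10, where 0.0229% of the 13129 genes tested did. At an unadjusted p under 0.05 there were also 0 of 10, against 2.99% of all genes tested, and DESeq2 and limma voom gave 0 of 10 at an adjusted p under 0.05 as well. The count was also 0 in the 9 libraries over 10000000 counts, and 0 without middle-aged female 2, where 0.0224% of genes passed at an adjusted p and 2.71% at an unadjusted one. The age groups did not separate for any of the 10, against 1.31% of all genes without overlap (1.01% higher and 0.297% lower). Within females, 2 of 10 lay wholly higher in middle-aged libraries (Btla and Tox, against 4.54% of all genes) and 0 wholly lower (against 2.76%). Within males, with 2 middle-aged libraries, 1 lay wholly higher (Havcr2, against 9.3%) and 1 wholly lower (Tox, against 6.6%). The log2 fold change, middle-aged over young, was positive for 8 of 10 genes (median 0.34), as it was for 50.4% of all genes (median 0.0028). Without middle-aged female 2 it was positive for 4 of 10 and the median was -0.07. At an unadjusted p under 0.05, limma voom gave 2 of 10, against 4.3% of all genes. With a term for library number, edgeR gave 3 of 10 (Ctla4, Havcr2 and Btla), against 8.87%, and 0 of 10 at an adjusted p. In the model with sex, the group showed no age difference beyond the spread between libraries. The sign of its median changed without middle-aged female 2, but other libraries mattered too. With young female 1 left out instead, Lag3 (-0.19), Tox (-0.17) and Cd200 (-0.21) also fell below 0. The estimates with and without middle-aged female 2 are shown in the plot of age differences.

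**Figure D1:**
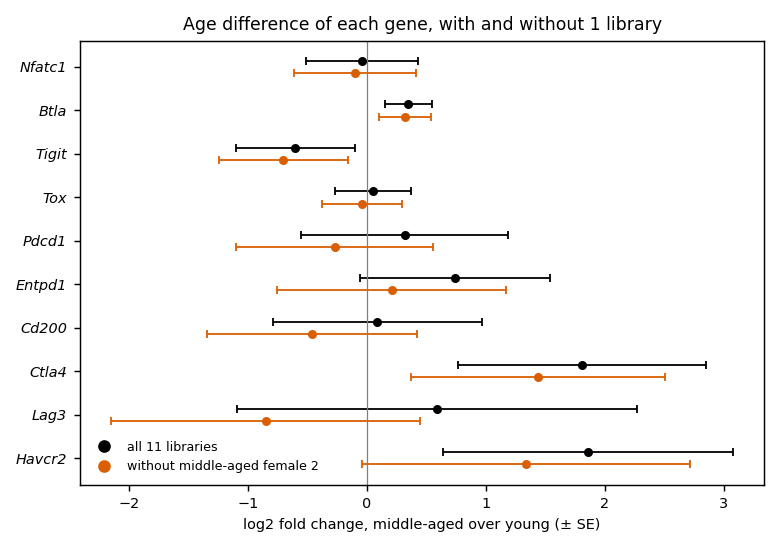
Log2 fold change (x axis, middle-aged over young) of each of the 10 genes from edgeR's fit with sex, as points with standard error bars, for all 11 libraries (black) and without middle-aged female 2 (orange). Pdcd1, Lag3, Tox and Cd200 lie right of 0 with all libraries and left of 0 without that library, while Ctla4 and Havcr2 stay right of 0 and Tigit stays left.

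Levels were compared between genes per length, as RPKM, which is the CPM divided by the merged exon length of the gene in kilobases. Nfatc1 was the most highly expressed at 25.9 ± 11.2 RPKM (SD, n = 11), above 81.2% of the genes tested, and Btla followed at 18 ± 3.21 RPKM, above 75.2% of them. Nfatc1 exceeded Btla in 8 of 11 libraries, so the order of the pair was not the same throughout. Btla exceeded Tigit, the next gene, in 10 of 11 libraries. Tigit (6.42 ± 4.2 RPKM) and Tox (5.39 ± 1.64 RPKM) did not differ beyond their spread, with Tigit above Tox in 5 of 11. The order of this pair can depend on the length used. Merged exons span 7609 bases for Tox, whose longest transcript has 3961, and both lengths are 919 for Tigit. Pdcd1 (2.87 ± 3.20 RPKM), Entpd1 (1.92 ± 1.96 RPKM) and Cd200 (1.34 ± 1.19 RPKM) overlapped widely. Without middle-aged female 2 their means were 2.01 ± 1.51, 1.42 ± 1.09 and 1.04 ± 0.699 RPKM (SD, n = 10). Ctla4, Lag3 and Havcr2 came last, at 0.728 ± 0.901, 0.451 ± 0.820 and 0.249 ± 0.310 RPKM, above 14.6%, 9.3% and 4.4% of the genes tested. Without middle-aged female 2 the mean of Lag3 was 0.21 ± 0.206 RPKM (SD, n = 10), close to that of Havcr2 at 0.171 ± 0.179 RPKM, and that of Ctla4 was 0.514 ± 0.584 RPKM. Btla and Nfatc1 transcripts were thus the most abundant of the group, and those of Ctla4, Lag3 and Havcr2 the least.

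**Figure D2:**
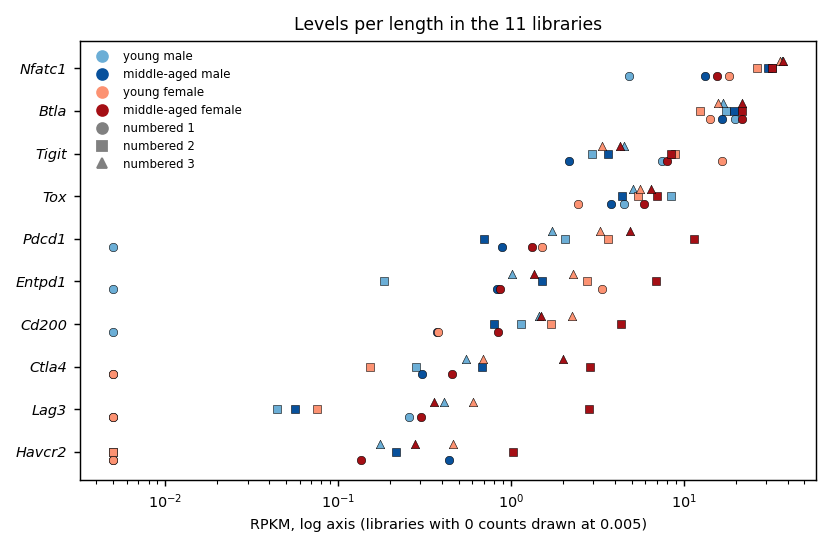
RPKM (x axis, log scale) of the 10 genes in each of the 11 libraries, ordered by mean level, coloured by sex and age, with the marker shape giving the library's number and libraries with 0 counts drawn at the left edge. Nfatc1 (25.9 RPKM on average) and Btla (18 RPKM) stand above the rest, and the spread widens downward, with middle-aged female 2 at the right end of the 6 lowest genes.

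Btla, which encodes an inhibitory receptor for HVEM, lies on chromosome 16 (45224315 to 45257670 of GRCm38, plus strand). Its levels in young males were 67.3, 59.4 and 57.4 CPM and in middle-aged males 57.0 and 66.1 CPM. In young females they were 48.4, 42.1 and 53.9 CPM, and in middle-aged females 74.5, 74.1 and 74.1 CPM. The male groups overlapped, whereas every middle-aged female lay above every other library of either sex. Over both sexes the mean was 54.7 ± 8.78 CPM (SD, n = 6) for young libraries and 69.2 ± 7.68 CPM (SD, n = 5) for middle-aged ones, and the log2 fold change was 0.35 (SE 0.20, edgeR adjusted p = 1; unadjusted p = 0.0996). The exact two-sided permutation test over libraries gave p = 0.0281, or 0.857 after Benjamini-Hochberg adjustment over all genes tested, and an exact p of 0.0619 without middle-aged female 2. Fitted apart, females had a log2 fold change of 0.64 (SE 0.28, edgeR adjusted p = 1) and males of 0.01 (SE 0.35), and the difference between the sexes did not pass either (edgeR interaction 0.62, SE 0.37, adjusted p = 1). Taken by library number, middle-aged libraries exceeded young ones by 0.19, 0.48 and 0.41 in mean log2 CPM for numbers 1, 2 and 3. Leaving out middle-aged female 2, whose Btla level was close to those of the other middle-aged females, gave a log2 fold change of 0.32.

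Tigit (chromosome 16, 43648867 to 43664146, minus strand) encodes a receptor for CD155. Young males had 6.87, 2.72 and 4.15 CPM and young females 15.4, 8.16 and 3.11 CPM. Middle-aged males had 2.00 and 3.36 CPM and middle-aged females 7.36, 7.77 and 3.94 CPM. The age groups overlapped, and the 15.4 CPM of young female 1 was the highest value. Tigit had a log2 fold change of -0.60 (SE 0.50, edgeR adjusted p = 1; exact permutation p = 0.511), with 6.74 ± 4.77 CPM in the young and 4.89 ± 2.55 CPM in middle-aged libraries. In the 9 libraries over 10000000 counts, which leave out young female 1, it was -0.08.

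Pdcd1 (chromosome 1, 94038305 to 94052553, minus strand), the PD-1 gene, had 0 counts in young male 1. The other young males had 3.99 and 3.34 CPM, the young females 2.92, 7.08 and 6.34 CPM and the middle-aged males 1.71 and 1.36 CPM. The middle-aged females ranged from 2.54 through 9.44 to 22.2 CPM, the last in middle-aged female 2. Middle-aged libraries were thus both the lowest after young male 1 and the highest. The means were 3.95 ± 2.55 CPM (SD, n = 6) for young libraries and 7.45 ± 8.88 CPM (SD, n = 5) for middle-aged ones, a log2 fold change of 0.32 (SE 0.87, edgeR adjusted p = 1). Without middle-aged female 2 the middle-aged mean was 3.76 ± 3.82 CPM (SD, n = 4) and the log2 fold change -0.27 (SE 0.83, edgeR adjusted p = 1).

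Ctla4 (chromosome 1, 60887000 to 60915832, plus strand) had 0 counts in young male 1 and young female 1. The other young libraries had 0.657, 1.29, 0.358 and 1.61 CPM, from 9 to 28 counts. The middle-aged males had 0.713 and 1.59 CPM and the middle-aged females 1.06, 6.69 and 4.69 CPM, from 15 to 160 counts over both sexes. The highest pair of libraries were both middle-aged females, and the remaining middle-aged libraries overlapped the young ones. Its log2 fold change was 1.81 (SE 1.04, edgeR adjusted p = 1; unadjusted p = 0.108; exact permutation p = 0.0519), with 0.653 ± 0.673 CPM in the young and 2.95 ± 2.62 CPM in middle-aged libraries. The difference in mean log2 CPM within libraries numbered 1, 2 and 3 was 3.15, 2.50 and 1.63, and the first of these depends on the prior count because both young libraries numbered 1 were at 0. Without middle-aged female 2 the log2 fold change was 1.44 (SE 1.07). A processed pseudogene, Rpl18-ps1, overlaps Ctla4 on the same strand.

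Lag3 (chromosome 6, 124904361 to 124911705, minus strand) was counted at most 22 times in 10 of the 11 libraries and 144 times in middle-aged female 2. The young males had 0.543, 0.0939 and 0.860 CPM, the young females 0, 0.159 and 1.27 CPM, the middle-aged males 0 and 0.118 CPM, and the middle-aged females 0.636, 6.02 and 0.759 CPM. Outside middle-aged female 2 the age groups overlapped, and young male 3 and young female 3 lay above all remaining middle-aged libraries. The log2 fold change was 0.59 (SE 1.68, edgeR adjusted p = 1), or -0.85 (SE 1.30, edgeR adjusted p = 1) without that library. Lag3 also had the highest interaction of age with sex among the 10 genes, 5.31 (SE 2.51, edgeR adjusted p = 1; unadjusted p = 0.0587), which was 3.48 (unadjusted p = 0.184 in edgeR) without that library.

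Havcr2 (chromosome 11, 46454935 to 46481255, plus strand), which encodes TIM-3, was at 0 counts in young male 1, young male 2, young female 1 and young female 2. Young male 3 and young female 3 had 0.478 and 1.27 CPM. The middle-aged males had 1.19 and 0.590 CPM and the middle-aged females 0.371, 2.80 and 0.759 CPM, from 7 to 67 counts over both sexes. All 5 middle-aged libraries had a count above 3, and 2 of the 6 young libraries did. The fitted log2 fold change was 1.86 (SE 1.22, edgeR adjusted p = 1; unadjusted p = 0.152), and the exact permutation test gave p = 0.0346 (0.928 adjusted over all genes). With counts this low in young libraries the size of the fitted fold change depends on the prior count. Without middle-aged female 2 the exact permutation p was 0.0905.

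**Figure D3:**
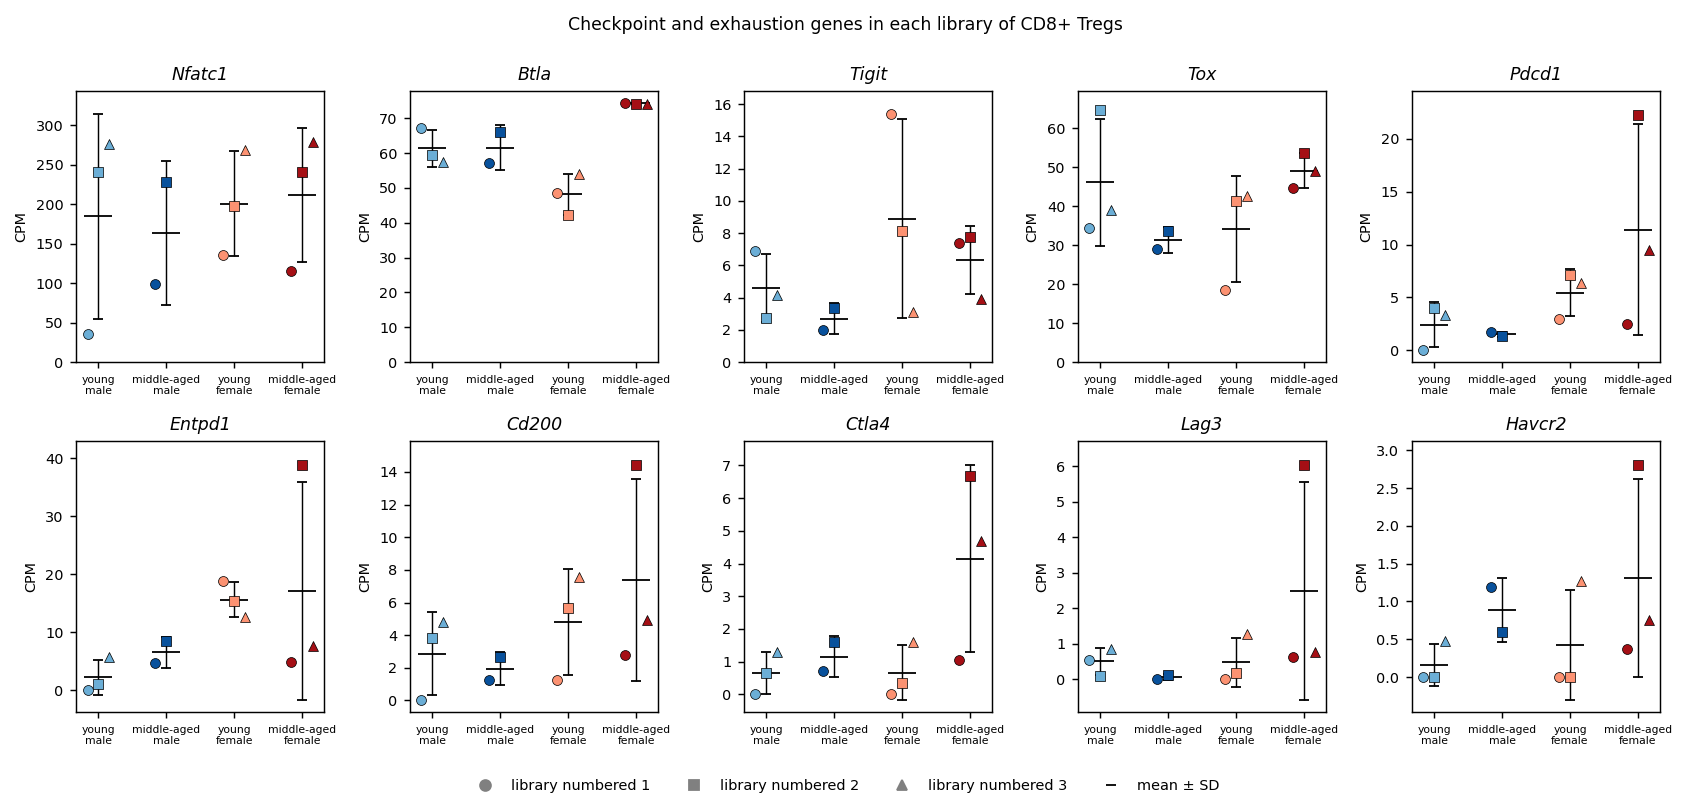
CPM (y axis, own scale in each panel) of the 10 genes in every library, by sex and age (x axis), with the marker shape giving the library's number and black bars the group mean and SD (n = 3, or 2 in middle-aged males). Middle-aged female 2 is the highest point for Pdcd1, Entpd1, Cd200, Ctla4, Lag3 and Havcr2, the middle-aged females lie above all other libraries for Btla, and the libraries numbered 1 are the lowest for Nfatc1.

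Cd200 (chromosome 16, 45382135 to 45409053, minus strand) encodes the ligand of the inhibitory receptor CD200R1. The young males had 0, 3.80 and 4.82 CPM, the young females 1.25, 5.65 and 7.55 CPM, the middle-aged males 1.24 and 2.66 CPM and the middle-aged females 2.81, 14.4 and 4.93 CPM. The age groups overlapped, and the log2 fold change was 0.09 (SE 0.88, edgeR adjusted p = 1) with all libraries and -0.46 (SE 0.88) without middle-aged female 2. Cd200r1, the receptor gene, was at 2.16 ± 1.67 CPM in the young and 2.71 ± 1.96 CPM in middle-aged libraries, or 2.05 ± 1.49 CPM (SD, n = 4) without middle-aged female 2, which held 5.35 CPM.

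Entpd1 (chromosome 19, 40612366 to 40741602, plus strand) encodes CD39, which degrades extracellular ATP on the way to adenosine. Among young libraries the sexes did not overlap, with 0, 1.03 and 5.68 CPM in males and 18.8, 15.4 and 12.7 CPM in females. The 0 was in young male 1, a library of low depth. The share of all genes with such a separation was not computed. The middle-aged males had 4.66 and 8.44 CPM and the middle-aged females 4.82, 38.8 and 7.59 CPM. Middle-aged females 1 and 3 therefore lay below all 3 young females, and middle-aged female 2 lay above every other library. The age difference was 0.74 on the log2 scale (SE 0.80, edgeR adjusted p = 1), or 0.21 (SE 0.96) without middle-aged female 2. In the same model Entpd1 was higher in females, with 16.4 CPM against 3.96 CPM in males, by 2.12 on the log2 scale. This was the single gene of the 10 with an unadjusted p under 0.05 for sex (edgeR unadjusted p = 0.0286, adjusted p = 1), where 0.754% of all genes had one and 0.0381% passed at an adjusted p. Without middle-aged female 2 the sex difference was 1.65 (unadjusted p = 0.114 in edgeR), which had the same direction but a p no longer under 0.05. The processed pseudogenes Gm16027 and Gm8783 and a sense-intronic gene overlap Entpd1 on its strand, so reads could be split between them.

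Tox (chromosome 4, 6686353 to 6991557, minus strand), whose product sustains the exhausted state, moved in opposite directions in the 2 sexes. The young males had 34.5, 64.8 and 39.1 CPM and the middle-aged males 28.9 and 33.6 CPM. The young females had 18.6, 41.3 and 42.7 CPM and the middle-aged females 44.6, 53.7 and 49.1 CPM. Every middle-aged male lay below every young male and every middle-aged female above every young female, although young male 1 and middle-aged male 2 differed by little. Such an opposite separation occurred in 0.503% of the genes tested and in 1 of these 10. The log2 fold change was -0.56 (SE 0.45) in males and 0.52 (SE 0.40) in females, and the interaction was 1.08 (SE 0.58, edgeR adjusted p = 1; unadjusted p = 0.087). The difference between the sexes therefore did not pass the test, where 0% of genes did at an adjusted p under 0.05 and 1.20% at an unadjusted one. The fits that each left out 1 library gave interactions from 0.76 (without young male 2) to 1.27. Over both sexes the age difference was 0.05 (SE 0.32, edgeR adjusted p = 1), with 40.2 ± 14.9 CPM in the young and 42.0 ± 10.4 CPM in middle-aged libraries. An antisense gene, Gm11802, overlaps Tox, and whether the counting used strand is not given in the sources used here. Its relative Tox2 was left out by the filter, with 0.309 ± 0.393 CPM in the young and 2.20 ± 2.93 CPM in middle-aged libraries, or 1.07 ± 1.7 CPM (SD, n = 4) without the 6.73 CPM of middle-aged female 2.

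Nfatc1, on chromosome 18, encodes the NFAT protein that shuttles to the nucleus after calcineurin acts. Its levels split by library number rather than by age. The 4 libraries numbered 1 had 35.8 (young male), 99.0 (middle-aged male), 136 (young female) and 116 CPM (middle-aged female), and the 7 others lay from 198 to 279 CPM. This was the single gene of the 10 for which all libraries numbered 1 lay below all others, against 12.3% of the genes tested, and for 0 of the 10 did they lie above all others, against 12.8%. The CD8 T cell markers summed to 10300 to 14400 CPM in the libraries numbered 1 and to 7670 to 10900 CPM in the others, and what this has to do with Nfatc1 was not tested. Young and middle-aged libraries had the same mean of 193 CPM, with SDs of 92.9 and 80.4 CPM, and the log2 fold change was -0.04 (SE 0.47, edgeR adjusted p = 1). Within numbers 1, 2 and 3 the age difference in mean log2 CPM was 0.62, 0.10 and 0.03. An antisense gene overlaps Nfatc1 too.

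The levels of 6 of the 10 genes (Pdcd1, Lag3, Havcr2, Ctla4, Entpd1 and Cd200) were highest in middle-aged female 2, against 12.2% of all genes tested. For 4 of them (Pdcd1, Lag3, Havcr2 and Entpd1) that library was at least 2-fold above every other library, against 2.51% of all genes. The ratio to the next library was 4.75 for Lag3, 2.35 for Pdcd1, 2.21 for Havcr2, 2.07 for Entpd1, 1.90 for Cd200 and 1.42 for Ctla4. For Btla, Tigit, Tox and Nfatc1 at least 1 other library was higher. The genes of the group thus divided into those raised in this library and the 4 that were best expressed per length.

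Markers of other cells moved with that library. Of 12 myeloid markers 6 were highest there, among them S100a9 (766 CPM against at most 41.4 elsewhere), S100a8 (702 against 38.6) and Lyz2 (1060 against 285), while C1qa, C1qb and C1qc, of macrophages, were not. All 12 myeloid markers were counted in it, and the summed level was 46.5 to 310 CPM in young libraries and 161 to 354 CPM in the other middle-aged ones. The 6 plasma cell markers summed to 357 CPM in it and to at most 159 CPM elsewhere, the 8 dendritic cell markers to 66.0 and at most 54.2 CPM, and the 10 B cell markers to 646 and at most 587 CPM. Foxp3, which defines CD4+ Tregs, was at 9.99 CPM in it and at most 4.08 CPM elsewhere, whereas Cd4 (15.4 CPM) did not exceed the 18.7 CPM of another library. The 9 CD8 T cell markers summed to 7940 CPM in it, within the range of 7670 to 14400 CPM over all libraries. Within that list Ikzf2, which encodes Helios, was lower in it than in any other library, at 10.8 CPM with others up to 69.2, and Cd3e (661 CPM) and Il2rb (1960 CPM) were the lowest among middle-aged libraries. The 9 NK cell markers summed to 1130 CPM, also within the range. Its CD4 T cell markers summed to 75.5 CPM (21.7 to 153 CPM over all libraries), its erythroid and platelet markers to 38.3 CPM (1.28 to 157), with all 4 platelet genes highest in it (Itga2b at 15.9 CPM against at most 1.92, Ppbp at 7.6 against 1.27, Pf4 at 5.22 against 1.12 and Gp9 at 0.836 against 0.334), and its endothelial markers to 45.5 CPM (21.8 to 96.0), with Cdh5, Kdr, Tek, Emcn and Stab2 at 0. The part of these other cells in the levels of the 6 genes was not tested.

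**Figure D4:**
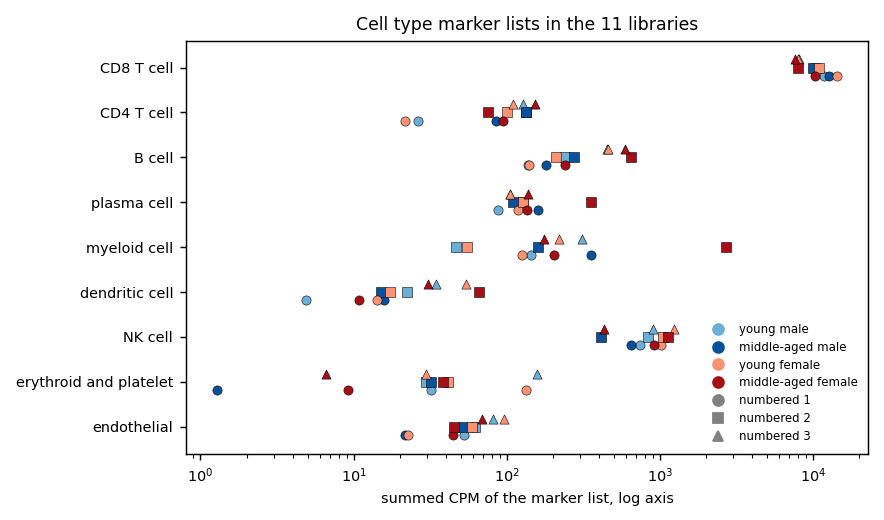
Summed CPM (x axis, log scale) of 9 lists of cell type markers in each of the 11 libraries, coloured by sex and age, with the marker shape giving the library's number. Middle-aged female 2 lies at 2690 CPM for myeloid markers, against at most 354 CPM in the others, and is also highest for plasma cell, dendritic cell and B cell markers, while the CD8 T cell lists lie between 7670 and 14400 CPM.

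The remaining genes of these pathways were taken from 5 lists. Of 14 other inhibitory receptor genes tested, 0 passed at an adjusted p under 0.05, and 2 were higher and 1 lower at an unadjusted p under 0.05 (median log2 fold change 0.20), where 2% of all genes were higher and 0.99% lower. Lair1, a collagen receptor, had 1.81 to 23.3 CPM in the young and 35.2 to 64.8 CPM in middle-aged libraries, without overlap (log2 fold change 1.5, SE 0.51, edgeR adjusted p = 0.974). Pvrig, a nectin-2 receptor that acts beside TIGIT, had 0.139 to 15 CPM and 16.8 to 23.7 CPM, also without overlap (1.85, SE 0.67, edgeR adjusted p = 1). Age groups lay apart with middle-aged libraries higher for 1.01% of all genes, and these 2 were named as those of lowest p in the list. Middle-aged female 2 was highest for 7 of the 14 receptor genes, Lair1 (64.8 CPM) and Pvrig (23.7 CPM) included, against 12.2% of all genes tested. In the lists below it was highest for 2 of 12 ligand and binding partner genes and 6 of 21 transcription factor genes. It was highest for 2 of 16 calcineurin and NFAT genes and 1 of 11 adenosine and ATP genes. Cd244a, the SLAM-family receptor 2B4, had 6.33 to 35.3 CPM in the young and 0.856 to 22.8 CPM in middle-aged libraries, and its log2 fold change of -1.80 became -2.46 without middle-aged female 2, which held the 22.8 CPM. In CPM, which takes no account of gene length, Cd160, Cd96 and Cd5 stood far above most of the 10 genes. They had 230 ± 81.5, 233 ± 62.1 and 292 ± 63.1 CPM in the young and 258 ± 90.8, 210 ± 38.7 and 245 ± 30.1 CPM in middle-aged libraries.

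Of 12 ligand and binding partner genes tested, 0 passed at an adjusted p, 2 were higher and 0 lower at an unadjusted p under 0.05 (median -0.04). Tnfsf14, which encodes LIGHT, another ligand of HVEM, had 18.4 ± 3.47 CPM in the young and 31.3 ± 9.35 CPM in middle-aged libraries (log2 fold change 0.77, SE 0.28, edgeR adjusted p = 1). Lgals3, which encodes galectin-3, had 99.8 CPM in middle-aged female 2, and its log2 fold change of 1.69 was 0.74 without it. Cd86, a ligand of CTLA-4 and CD28, had a log2 fold change of -1.42 (SE 0.68, edgeR adjusted p = 1), or -2.02 without middle-aged female 2. Cd274, the PD-L1 gene, had 14.4 ± 7.73 CPM in the young and 22.3 ± 6.23 CPM in middle-aged libraries (log2 fold change 0.64, unadjusted p = 0.152 in edgeR), and Cd226, the activating rival of TIGIT, had 64.7 ± 18.9 and 47.3 ± 9.14 CPM (-0.46, unadjusted p = 0.0926 in edgeR).

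Among 21 transcription factor genes of exhaustion and memory tested, 0 passed at an adjusted p, and 1 was higher and 3 lower at an unadjusted p under 0.05 (median 0.03, or -0.19 without middle-aged female 2). Id2 and Id3 encode inhibitors of E proteins that mark effector and memory-precursor cells, respectively, and Myb sustains stem-like CD8 T cells. Id3 had 286 to 804 CPM in the young and 88.8 to 267 CPM in middle-aged libraries (log2 fold change -1.5, SE 0.35, edgeR adjusted p = 0.334). Myb had 31.4 to 46.7 CPM in the young and 4.50 to 24.1 CPM in middle-aged libraries (-1.79, SE 0.40, edgeR adjusted p = 0.321), and Id2 had 186 to 264 CPM and 295 to 582 CPM (1.03, SE 0.21, edgeR adjusted p = 0.228). Groups did not overlap for any of these 3 genes (exact permutation p = 0.00216 for each, which is the smallest value possible with 6 and 5 libraries, and 0.355 after adjustment over all genes). Groups lay apart for 1.01% of all genes with middle-aged libraries higher and for 0.297% with them lower. These 3 genes were named as those of lowest p in the list. In DESeq2 all 3 passed at an adjusted p under 0.05, as did 112 of the 13129 genes tested. With a term for library number, Id2 and Id3 passed in edgeR too (adjusted p = 0.0445 and 0.0295), and Myb did not (0.182). In that model 0.145% of all genes passed. Tcf7, the TCF-1 gene of stem-like cells, had 1030 ± 382 and 937 ± 307 CPM (log2 fold change -0.14), and Eomes had 164 ± 52.1 and 255 ± 81.9 CPM (0.61, unadjusted p = 0.0743 in edgeR).

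Of 16 calcineurin and NFAT genes tested, 0 had an unadjusted p under 0.05 (median 0.08). The lowest p was that of Ppp3cc, a catalytic subunit of calcineurin, with 190 ± 40.6 CPM in the young and 242 ± 32.2 CPM in middle-aged libraries (log2 fold change 0.35, edgeR adjusted p = 1). Ppp3r1, the regulatory subunit, and Nfatc2 had log2 fold changes of 0.22 and 0.35 (SE 0.24 and 0.40). Of 11 adenosine and ATP genes tested, 0 passed at an adjusted p and 1 was lower at an unadjusted p under 0.05 (median 0.04). This was Adk, adenosine kinase, with 82.7 ± 34.0 CPM in the young and 42.7 ± 12.9 CPM in middle-aged libraries (-0.97, SE 0.33, edgeR adjusted p = 0.974). Ada, adenosine deaminase, had 15 ± 8.01 and 31.8 ± 11 CPM (1.20, SE 0.58, edgeR adjusted p = 1), and Entpd7 had 5.32 ± 2.23 and 3.09 ± 1.58 CPM (-0.77, SE 0.50). Nt5e, the CD73 gene whose product follows CD39, had 57.7 ± 28.4 and 86.5 ± 40.1 CPM (0.52, unadjusted p = 0.244 in edgeR).

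Genes whose log2 CPM followed Btla, Ctla4 and Havcr2 most closely over the 11 libraries were listed from those with a mean of at least 10 CPM, as a description. For Btla they were Camp, Tmem183a and Cpne3 (Pearson r = 0.837, 0.830 and 0.823). For Ctla4 they were Adgrg5, Ikzf3 and Dok3 (r = 0.969, 0.963 and 0.951), and for Havcr2 Apoe, Kif3b and H2-Q7 (r = 0.886, 0.881 and 0.858). The points share the same libraries, depths and scaling factors, and the highest of 8331 or 8332 coefficients was taken in each case. For Ctla4 and Havcr2 the libraries with 0 counts all lie at the same log2 CPM of -3.18, and middle-aged female 2 is the highest point. The weight of these points in r was not tested.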

How the data were processed

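RNA of sorted splenic CD8+ Tregs was sequenced from SMARTer libraries by a company. The authors deposited counts, whole numbers of reads per Ensembl gene without normalization, for 11 libraries with GRCm38 coordinates, and 0 sample columns were left unused. The submitters' processing notes name kallisto and mm10. The kallisto version, strandedness and treatment of reads shared between genes are not given in the sources used here. Gene lengths in the table equalled the merged exons of GENCODE M21 for 9 of the 10 genes.

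Computations used R 4.3.3. Genes kept by filterByExpr on age (minimum count 10, minimum total 15; 13129 genes) were tested for age by edgeR 4.0.16, with TMM factors, robust glmQLFit and glmQLFTest, in a model with sex, and P values were adjusted by Benjamini-Hochberg over all genes tested at a threshold of 0.05. Interaction and sex were tested likewise, sex after the data were seen. Single genes were also compared by exact two-sided permutation over 462 splits on log2 CPM (prior count 2), for which the smallest p is 0.00216. CPM used TMM-scaled library sizes and RPKM the table's lengths. Groups came from the sample labels. Replicate libraries of a group differed by far more than sampling noise, and none was identical to another.

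The members and lists were chosen with earlier results of these data known. All 10 members were named, up to 3 genes of lowest p per pathway list, and 3 best-correlated genes for the 3 members of lowest p; Cd160, Cd96, Cd5, Cd200r1, Tox2, Cd274, Cd226, Tcf7, Eomes, Nt5e and Klrg1 were named after their values were seen. The limit of a count of 0 was 3 counts. Alternatives were other factors, filters, DESeq2 1.42.0 (Wald), limma 3.58.1 (voom), no sex term, a replicate block, each sex alone and each library left out, and, chosen after seeing the data, the 9 libraries over 10000000 counts, with and without middle-aged female 2. The steps were tested on simulated data. Depth was 6135736 to 24394532 counts per library.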

Additional observations from a re-analysis of the deposited data

Results flagged for a closer look

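Of 20 sets of values checked (10 genes in the young and in the middle-aged libraries), 3 had a library far from the others by Dixon's test. Chance flags about 1 in 20 sets where values are normally distributed and sets are independent. The share of flags over all genes was not computed. All 3 were middle-aged female 2, which was at least 2-fold above every other library for 2.51% of all genes tested. It had 6.02 CPM of Lag3, with the next middle-aged library at 0.759 CPM, 38.8 CPM of Entpd1, with the next at 8.44 CPM, and 14.4 CPM of Cd200, with the next at 4.93 CPM. The gap to the next library took 0.874, 0.889 and 0.719 of the range of the 5 middle-aged libraries. The same library had the highest myeloid, plasma cell, dendritic cell and B cell marker sums, whose part in these levels was not tested.

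Tox differed in direction between the sexes, with every middle-aged male below every young male and every middle-aged female above every young female. The interaction was 1.08 on the log2 scale (SE 0.58) and did not pass the test of the difference (edgeR adjusted p = 1).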

How the results depend on the processing

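The count of the 10 genes with an adjusted p under 0.05 stayed at 0 for age under all 25 alternatives and at 0 for the interaction under all 20 that were run. The genes called over the whole table were 3, and became 17 with at least 1 count in any library, 5 with at least 10 counts in every library, 112 in DESeq2, 12 in limma voom, 5 without the sex term, 0 in males alone, 0 in females alone, 6 in the 9 deeper libraries, 18 in those 9 less middle-aged female 2, and 1 to 4 when 1 library was left out. They were 1 without young male 2, young female 2, young female 3, middle-aged female 1 or middle-aged female 3. Members with an unadjusted p under 0.05 went from 0 to 2 in limma voom (4.3% of all genes in that test), 1 without the sex term (3.46%), 1 in the 9 deeper libraries less middle-aged female 2 (6.73%) and 0 to 1 when 1 library was left out, 1 being Havcr2 without young female 3 (2.85% of all genes). Age groups did not overlap for 2 members in males alone (1 higher, 1 lower, against 9.3% and 6.6% of all genes) and for 2 in females alone (both higher, against 4.54%). Pathway genes with an unadjusted p under 0.05 were 10 of 74 fitted (2.99% of all genes), and became 4 of 74 in males alone (1.48%), 17 of 74 in the 9 deeper libraries less middle-aged female 2 (6.73%) and 9 to 11 when 1 library was left out. At an adjusted p they were 0, and became 3 in DESeq2 (Id2, Id3 and Myb), 1 with at least 1 count in any library (Id3) and 1 in the 9 deeper libraries less middle-aged female 2 (Klrg1). Where a value changed, the cause was not tested.

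The replicate number was shared by young and middle-aged libraries of a sex in 5 pairs. Their deviations from the group means correlated by 0.0287 to 0.428, over 0.1 in 4 of 5. Among other groups, 9 of 11 libraries correlated best with their own number. All libraries numbered 1 lay below all others for 12.3% of the genes tested and above all others for 12.8%. This structure comes from the data, and the labels do not give the numbers as pairs. The numbers were therefore not taken as pairs. With the replicate block the genes called were 19 (0.145% of those tested), members with an unadjusted p under 0.05 were 3 of 10, where 8.87% of all genes had one (Ctla4, Havcr2 and Btla, whose adjusted p in edgeR were 0.311, 0.468 and 0.558), and pathway genes were 19 of 74. Id2 and Id3 passed with the block, at an adjusted p in edgeR of 0.0445 and 0.0295. Within sex the block gave 2 members, where 6.37% of all genes had such a p, and 17 of 74 pathway genes. Nfatc1 turned from -0.04 to 0.15 with the block and 0.28 with the block within sex.

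Directions turned for 6 members. In males alone the log2 fold change was -0.70 for Pdcd1, -0.56 for Tox and -0.59 for Cd200, and in females alone it was 0.09 for Nfatc1, which limma voom put at 0.02. In the 9 deeper libraries it was -0.16 for Pdcd1, -0.07 for Lag3, -0.22 for Tox and -0.44 for Cd200. Less middle-aged female 2 it was -0.70, -1.21, -0.30 and -0.96 for these 4, and -0.13 for Entpd1. When 1 library was left out it ranged from -0.27 to 0.60 for Pdcd1, -0.85 to 1.44 for Lag3, -0.17 to 0.22 for Tox, -0.46 to 0.37 for Cd200 and -0.22 to 0.15 for Nfatc1, with the lowest of Pdcd1, Lag3 and Cd200 reached without middle-aged female 2. Tigit (-0.83 to -0.08), Havcr2 (0.84 to 4.70), Ctla4 (0.75 to 2.94) and Btla (0.01 to 0.64) had the same sign under every alternative that fitted them. Havcr2, Lag3 and Ctla4 were at 0 counts in at least 2 libraries, for Havcr2 and Lag3 also in libraries over 10000000 counts, and small differences in these genes were not detectable at such counts. With at least 10 counts in every library 4 of the 10 members could be fitted, and Lag3 could not be fitted in males alone or in 2 of the 11 fits that left out a library.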
